A study of Mus musculus with 4 samples.

Results

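The 9 genes described here encode subunits of the Polycomb repressive complexes: Ezh1, Ezh2, Eed, Suz12 and Jarid2 of PRC2, and Bmi1, Rnf2, Cbx2 and Cbx8 of PRC1. They were taken from 21938 protein-coding genes on the assembled mouse chromosomes (GENCODE M21, mm10), and every peak in the body of each gene or within 10 kb on either side was kept. Chromatin binding of Foxr2 had been profiled by CUT&RUN, in which a nuclease held by an antibody cuts out the DNA around a protein, with an antibody against the V5 tag. Foxr2 p53LOF, profiled in 2 replicates, consists of C57BL/6J cells grown as neurospheres from a brain tumour induced by in utero electroporation of a piggyBac vector that expresses FOXR2 with a C-terminal V5 tag from the CAG promoter, together with a CRISPR guide against Trp53. The V5 control, also in 2 replicates, consists of C57BL/6J cells of genotype H3.3G34R from a separate electroporation model that lacks the tag. The study's methods name a single Foxr2 p53LOF line, while the series description speaks of lines for both groups. Both were fixed with 0.1% formaldehyde for 1 min. The tagged protein is thus a transgene product in a single tumour model, and nothing says that replicates came from separate cultures, so their spread may be technical. The control differs from Foxr2 p53LOF in its model and genotype as well as in the tag, and these differences cannot be told apart.

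Polycomb complexes keep developmental genes silent. PRC2 methylates lysine 27 of histone H3 and PRC1 ubiquitinates histone H2A, and chromobox proteins of PRC1 bind the methylated histone, which links the marks. In the developing brain both complexes hold back the genes of other lineages and of later stages while progenitors expand and differentiate. The values below concern binding at the genes that encode the complexes, not binding of the complexes to their own targets, and no expression of these genes was measured in these libraries.

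Each of the 9 genes had a promoter site, a peak shared by both Foxr2 p53LOF replicates within 1 kb of an own coding start. So did 39.2% of all protein-coding genes. At Eed the site also covers the start of a noncoding RNA gene. None of the 9 carried a promoter peak in either V5 control replicate. Any peak in the region was listed for 0.524% and 0.260% of all protein-coding genes in V5 control replicates 1 and 2. Jarid2, Cbx8 and Ezh2 had the highest enrichment, at 32.7-fold and 33.5-fold, 23.9-fold and 26.3-fold, and 17.7-fold and 21.4-fold in replicates 1 and 2. By the lower of the 2 folds, Ezh1, Eed, Suz12, Rnf2, Cbx2 and Bmi1 ran from 7.95 to 11.9, although Suz12 reached 18.4-fold in replicate 2 and Cbx2 15.0-fold in replicate 1. A fold sets the fragments counted at a summit, with 1 added, against the background level of that library, also with 1 added. A site was called where filtered peaks of both Foxr2 p53LOF replicates (fold over 6, −log10 q over 6, length under 10000 bp, no V5 control peak over at least 10 bp) covered the same stretch.

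With all peaks counted, 9 of the 9 genes had a peak in their region in Foxr2 p53LOF replicate 1 (66.2% of all protein-coding genes), 9 in replicate 2 (66.9%), 1 in V5 control replicate 1 (0.524%) and 0 in V5 control replicate 2 (0.260%). The groups did not overlap, and their means differed by 8.5 genes (two-sided exact permutation p = 0.33, the smallest that 2 against 2 libraries allow). All 9 genes had at least 1 site in their region, against 50.0% of protein-coding genes, and all 9 had a promoter site, within 1 kb of the start of one of their own coding transcripts, against 39.2%. The 4 libraries hold 31909, 38580, 308 and 124 peaks in all. Their lists carry no read totals, and a fold over 6 took 13 and 18 summit fragments for Foxr2 p53LOF and 16 and 9 for the V5 control. The 95% intervals in brackets are exact Poisson intervals of those summit fragments, and they cover counting error only.

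**Figure D1:**
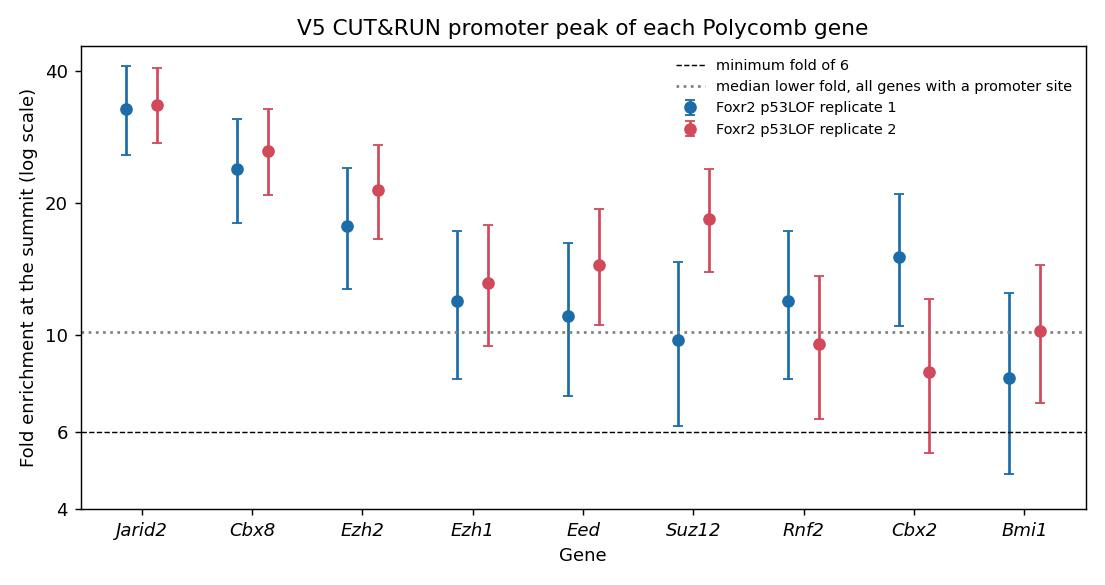
Fold enrichment (log scale) at the summit of the highest promoter site of each of the 9 genes, with points for the 2 Foxr2 p53LOF replicates and bars for the 95% Poisson intervals of summit fragments; no V5 control peak lies at these promoters. Jarid2, Cbx8 and Ezh2 stand highest, and the bars of the replicates overlap at each of the 9 genes.

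The catalytic subunits of PRC2 are Ezh1 and Ezh2, methyltransferases of which Ezh2 is the form of dividing cells. Ezh2 (ENSMUSG00000029687.16, chr6:47530139-47595341, minus strand) was bound at 17.7-fold [12.7 to 24.0] from 39 fragments in replicate 1 and at 21.4-fold [16.5 to 27.2] from 64 fragments in replicate 2. Its site, chr6:47592999-47596646, was 3648 bp long, and the summits lay 64 and 6 bp downstream of the start, in an untranslated exon. This level exceeded that of 87.2% of the 8599 genes with a promoter site. Ezh1 (ENSMUSG00000006920.14, chr11:101191115-101226463, minus strand) had 11.9-fold [7.95 to 17.3] and 13.1-fold [9.44 to 17.8] at chr11:101225493-101227017. Both of its summits, 119 and 154 bp past the start, fell in an intron. Ezh2 was the higher of the catalytic subunits in both replicates, with 39 against 26 fragments in replicate 1 and 64 against 39 in replicate 2, although their Poisson intervals overlapped in each.

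The stretch directly before the start of Ezh2 is shown because it holds repeated matches to the strings of both E2F and SP/KLF factors, in capitals (TTCCCGCC, the reverse complement of GGCGGGAA, and CCCGCCC, that of GGGCGGG); this and the sequences that follow are from the RefSeq GRCm38.p6 genome, 5′ to 3′ on the strand of the gene. It spans chr6:47595342-47595541, minus strand, 200 bases that end at the base before the start.
Ezh2 upstream: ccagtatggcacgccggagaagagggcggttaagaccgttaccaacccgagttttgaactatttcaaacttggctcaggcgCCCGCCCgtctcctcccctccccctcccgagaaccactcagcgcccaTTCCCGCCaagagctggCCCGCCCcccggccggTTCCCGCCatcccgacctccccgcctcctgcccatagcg

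Outside their sites the catalytic genes showed weak peaks. Ezh1 had an intronic peak 14189 bp into the gene at 3.09-fold in replicate 1, which passed the minimum in replicate 2 alone, at 6.57-fold. A pair of overlapping peaks 4150 and 4103 bp upstream of Ezh1 reached 3.98-fold and 4.60-fold. Neither stretch was a site. At Ezh2, the peaks outside its site were at 3.98-fold and 4.42-fold in replicate 1 and between 3.29-fold and 3.61-fold in replicate 2, 1 of them (3.61-fold) 700 bp from another of its coding-transcript starts. These were close to the lowest folds listed in these libraries (3.09 and 2.96).

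Eed, the subunit that reads methylated histone and stimulates the enzyme, and Suz12, the scaffold of the PRC2 core, were bound at more moderate levels. Eed (ENSMUSG00000030619.9, chr7:89954654-89980983, minus strand) had 11.0-fold [7.24 to 16.2] in replicate 1 and 14.5-fold [10.6 to 19.4] in replicate 2, at chr7:89979371-89981814. The summits were 141 and 126 bp downstream of its start, within an untranslated exon. The nearest start of any gene was that of E230029C05Rik, a long noncoding RNA gene, so the peak lies over both starts and cannot be assigned to one of them. One more peak, at 3.61-fold and 4186 bp upstream, was listed in replicate 2 only.

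Suz12 (ENSMUSG00000017548.15, chr11:79993106-80034123, plus strand) differed more between replicates than most promoters did. Its fold was 9.72 [6.19 to 14.6] from 21 fragments in replicate 1 and 18.4 [13.9 to 23.8] from 55 fragments in replicate 2, and the intervals overlapped only between 13.9 and 14.6. The ratio of replicate 2 to replicate 1, 1.89, was above that of 98.3% of the 7807 promoter sites. The summit moved as well. It lay 164 bp downstream of the start in replicate 1 and 381 bp upstream in replicate 2, 545 bp apart, whereas the peak of replicate 2 was 4738 bp long against 2244 bp in replicate 1. The site shared by both was chr11:79991956-79994199. In replicate 1 a separate peak of 4.86-fold, 1591 bp downstream, lay under the long peak of replicate 2.

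To show what lies at the shifted summit, the 200 bases around that of replicate 2 (chr11:79992625-79992824, plus strand) are given with the 200 bases before the start (chr11:79992906-79993105, plus strand), which lie between the 2 summits. Capitals mark CCAAT, the NFY string, and GGGCGGG, the SP/KLF string. None of the strings searched occurs in the first stretch.
Suz12 replicate 2 summit: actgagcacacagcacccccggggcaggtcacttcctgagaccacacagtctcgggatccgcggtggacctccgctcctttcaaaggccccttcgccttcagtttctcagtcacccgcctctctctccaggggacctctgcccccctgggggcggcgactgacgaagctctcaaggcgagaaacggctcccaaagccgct
Suz12 upstream: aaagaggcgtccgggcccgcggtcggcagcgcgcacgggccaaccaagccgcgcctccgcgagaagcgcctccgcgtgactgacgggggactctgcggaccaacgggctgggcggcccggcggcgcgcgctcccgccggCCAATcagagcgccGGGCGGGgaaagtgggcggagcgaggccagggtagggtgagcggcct

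**Figure D2:**
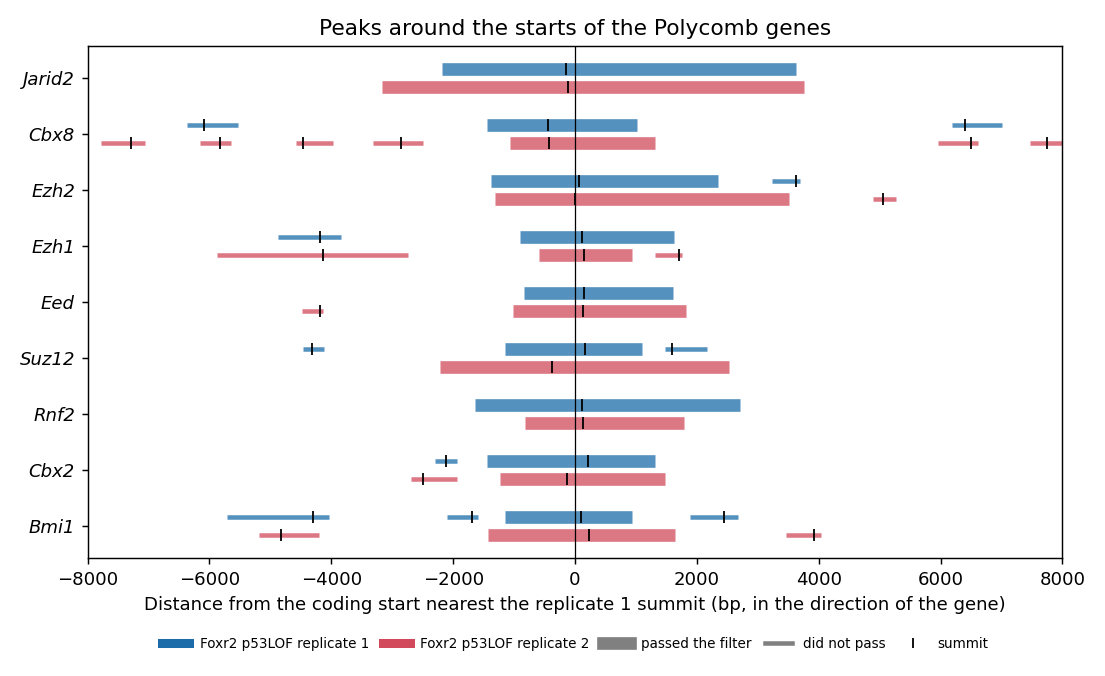
Peaks of the 2 Foxr2 p53LOF replicates within 8 kb of the coding-transcript start nearest the replicate 1 summit (x axis in bp, in the direction of each gene), with thick bars for peaks that passed the filter, thin bars for those that did not and ticks for summits. Around each start a thick bar of both replicates covers the start itself, and the summits of Suz12 and Cbx2 fall on either side of it in the 2 replicates.

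Jarid2, an accessory subunit that helps to bring PRC2 to chromatin, was the most strongly bound of the 9 genes (ENSMUSG00000038518.15, chr13:44729474-44921643, plus strand). Its promoter site, chr13:44729094-44734906, had 32.7-fold [25.7 to 41.0] from 73 fragments in replicate 1 and 33.5-fold [27.4 to 40.6] from 101 fragments in replicate 2. It ranked 86th among the 8599 genes with a promoter site. The peaks were also broad, at 5813 and 6923 bp, and 165 promoter sites (2.11%) had peaks of at least 5 kb in both replicates. The summits lay 140 and 112 bp upstream of the nearest coding-transcript start, 28 bp apart, in sequence annotated as an intron. The replicate 1 summit, at chr13:44731031-44731230, plus strand, is shown as the highest of the 9 genes in that replicate. None of the strings searched occurs in it, so it is printed without capitals.
Jarid2 replicate 1 summit: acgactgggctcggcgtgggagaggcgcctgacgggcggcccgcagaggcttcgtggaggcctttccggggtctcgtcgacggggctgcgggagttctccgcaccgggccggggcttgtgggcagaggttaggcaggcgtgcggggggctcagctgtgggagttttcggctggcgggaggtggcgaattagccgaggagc

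Jarid2 had 13 peaks in replicate 1 and 18 in replicate 2, the most of the 9 genes, over a body of 192170 bp, which is also the longest. A further promoter site, chr13:44839591-44841063, lay at the start of a shorter coding transcript, with 12.4-fold [8.30 to 17.8] and 14.1-fold [10.3 to 19.0] and summits 335 and 197 bp upstream of it. An intronic site, chr13:44751341-44752544, had 6.63-fold [3.82 to 10.8] and 11.8-fold [8.34 to 16.3]. Its summits were 20338 and 20861 bp downstream of the nearest own coding start, and 17585 and 18108 bp downstream of the nearest start of any Jarid2 transcript. This was the only site in the 9 regions away from a promoter. A further 8 stretches in the region were covered by peaks of both replicates without becoming sites, among them pairs at 6.19-fold and 5.91-fold, 6.63-fold and 5.59-fold, and 4.86-fold and 8.87-fold, in which 1 replicate passed the minimum and the other did not. The nearest annotated start was that of Gm22213 for the first 2 of these pairs and for 1 more, and that of Dtnbp1 for the third, although all lie in introns of Jarid2.

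Of all peaks in the 9 regions, 1 was shared with a V5 control library, in an intron of Jarid2. It lay 28960 to 28983 bp from the nearest own coding start and 28868 to 28891 bp from the nearest start of any Jarid2 transcript. It had 17.7-fold [12.7 to 24.0] in Foxr2 p53LOF replicate 1, 27.9-fold [22.3 to 34.5] in replicate 2 and 15.2-fold [11.0 to 20.6], from 40 fragments, in V5 control replicate 1, and it was not listed in V5 control replicate 2. The 3 peaks began at the same base, chr13:44869572, and were 448, 440 and 389 bp long. They were narrow beside the promoter peaks, had a GC content of 55.3 to 55.5% and were soft-masked as repeat over 1.34 to 1.54% of their bases. The filter removed this stretch, and it enters no site. Among the 308 peaks of V5 control replicate 1, 137 lay over peaks of both Foxr2 p53LOF replicates and 11 shared their first base with both.

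**Figure D3:**
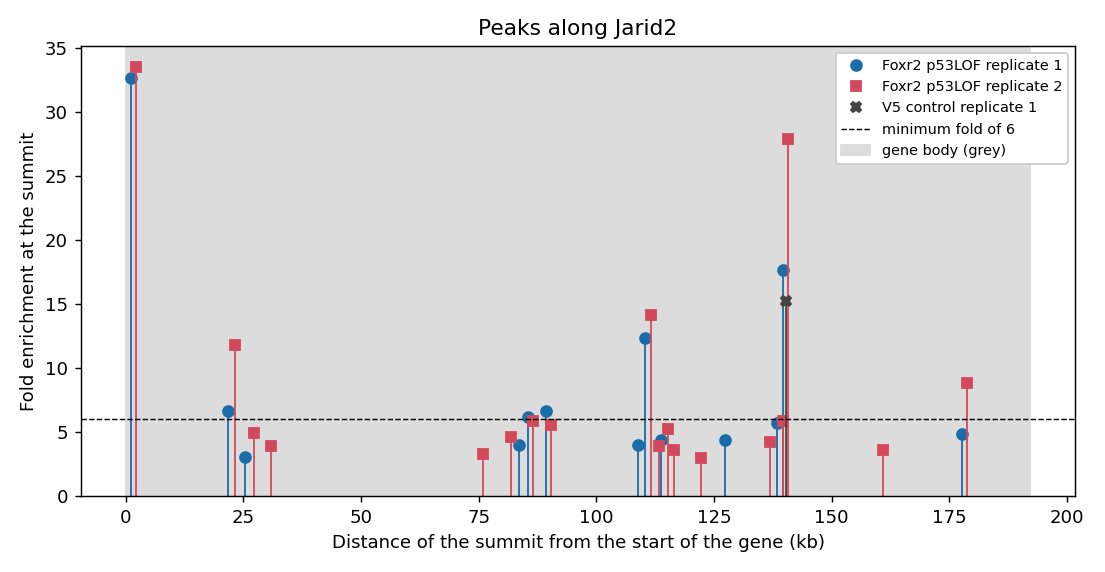
Fold enrichment at the summit of every peak in the Jarid2 region against distance from the start of the gene (kb), for the Foxr2 p53LOF replicates and V5 control replicate 1 (replicates 1 and 2 are drawn 0.5 kb to the left and right of their true place so that both can be seen). The promoter peaks at 32.7-fold and 33.5-fold stand at the left, and the peak shared with the control at 17.7-fold, 27.9-fold and 15.2-fold stands in the right part of the gene body.

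Within PRC1, Rnf2 is the ubiquitin ligase and Bmi1 the RING partner that activates it. Rnf2 (ENSMUSG00000026484.13, chr1:151458004-151500955, minus strand) had exactly 1 peak per Foxr2 p53LOF replicate in its region, at 11.9-fold [7.95 to 17.3] and 9.53-fold [6.44 to 13.6]. Both summits lay in an intron, 119 and 124 bp past the start, 5 bp apart, in the site chr1:151499008-151501611. Replicate 2 was the lower replicate, with a ratio of 0.799, and 4.55% of promoter sites had a lower ratio.

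Bmi1 (ENSMUSG00000026739.13, chr2:18677018-18686629, plus strand) was the lowest of the 9 promoters in replicate 1 and by the lower of the 2 folds, though not in replicate 2, where Cbx2 and Rnf2 were lower. It had 7.95-fold [4.82 to 12.5] from 17 fragments in replicate 1 and 10.2-fold [6.98 to 14.4] from 30 in replicate 2. The lower bound of replicate 1 falls under the minimum fold of 6. Its site was chr2:18675865-18677949, with summits 101 and 229 bp downstream of the start in an untranslated exon, and it exceeded 24.9% of genes with a promoter site. The starts of the neighbouring genes Commd3 and Spag6 also carried peaks in both replicates, at 5.30-fold and 5.91-fold and at 5.30-fold and 5.59-fold, below the minimum. The 200 bases before the start (chr2:18676818-18677017, plus strand) are shown because GGGCGGG or its reverse complement, in capitals, recurs there at a promoter with a low fold.
Bmi1 upstream: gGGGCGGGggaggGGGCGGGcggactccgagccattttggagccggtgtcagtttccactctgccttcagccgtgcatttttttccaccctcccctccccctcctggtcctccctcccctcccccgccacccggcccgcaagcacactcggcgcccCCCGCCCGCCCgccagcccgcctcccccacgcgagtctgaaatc

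The chromobox subunits Cbx2 and Cbx8, which bind methylated lysine 27 of histone H3 in canonical PRC1, are neighbours on chromosome 11 and are transcribed towards each other. Cbx8 (ENSMUSG00000025578.9, chr11:119036305-119040969, minus strand) was bound at 23.9-fold [18.0 to 31.1] and 26.3-fold [20.9 to 32.7], higher than 95.2% of genes with a promoter site. Its summits lay 445 and 426 bp upstream of the start, 19 bp apart, farther out than at any other of the 9 genes. Cbx2 (ENSMUSG00000025577.7, chr11:119022962-119031270, plus strand) had 15.0-fold [10.5 to 20.9] in replicate 1 but 8.21-fold [5.38 to 12.1] in replicate 2, at chr11:119021731-119024274. Of all promoter sites, 0.154% had a lower ratio of replicate 2 to replicate 1 than the 0.547 of Cbx2. The intervals of its replicates overlapped between 10.5 and 12.1, and its summit moved from 220 bp downstream of the start to 138 bp upstream.

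The regions of these neighbours overlap, so the Cbx8 promoter site (chr11:119039945-119042030) also counts in the Cbx2 region, 18452 bp from the start of Cbx2. In replicate 1, Cbx8 lay above Cbx2 with overlapping intervals; in replicate 2 the intervals were apart. Between the genes a weak pair of peaks at 3.98-fold and 4.60-fold passed no filter. Upstream of Cbx8, replicate 2 had 4 more peaks between 4.27-fold and 4.60-fold within 7280 bp of the start, and replicate 1 had peaks of 3.98-fold at 6084 and 10151 bp. The summits of both genes are shown because one pair stayed in place and the other did not: that of Cbx8 in replicate 1 (chr11:119041314-119041513, minus strand) and that of Cbx2 in replicate 2 (chr11:119022724-119022923, plus strand). Neither contains one of the strings searched.
Cbx8 replicate 1 summit: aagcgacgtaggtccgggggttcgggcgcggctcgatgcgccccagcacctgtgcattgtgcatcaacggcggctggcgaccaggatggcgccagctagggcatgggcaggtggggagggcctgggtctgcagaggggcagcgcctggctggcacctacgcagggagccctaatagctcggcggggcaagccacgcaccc
Cbx2 replicate 2 summit: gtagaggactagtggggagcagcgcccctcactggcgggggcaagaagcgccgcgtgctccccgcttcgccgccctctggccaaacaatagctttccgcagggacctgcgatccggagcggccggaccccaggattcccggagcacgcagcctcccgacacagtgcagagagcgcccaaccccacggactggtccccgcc

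Set in order by the lower of their 2 folds, the promoters ran Jarid2, Cbx8, Ezh2, Ezh1, Eed, Suz12, Rnf2, Cbx2 and Bmi1. The Poisson intervals of every 2 neighbours in this order overlapped in replicate 1. In replicate 2 they overlapped as well for each neighbouring pair except Suz12 and Rnf2, whose intervals ran from 13.9 to 23.8 and from 6.44 to 13.6. The interval of Jarid2 was clear of those of all genes but Cbx8 in both replicates. That of Cbx8 was clear of those of Ezh1, Eed, Rnf2 and Bmi1 in both. By this order the 5 PRC2 genes lay above Rnf2, Cbx2 and Bmi1 of PRC1, and Cbx8 of PRC1 lay second. The same held in replicate 2 but not in replicate 1. There Cbx2 (15.0-fold) lay above Ezh1 (11.9-fold), Eed (11.0-fold) and Suz12 (9.72-fold), and Rnf2 (11.9-fold) above Eed and Suz12. A difference between the complexes was not tested.

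The median of the lower fold at the 9 promoters was 11.0, against 10.2 over the 8599 genes with a promoter site, whose quartiles were 7.95 and 13.7 and whose 90th percentile was 19.0. Of the 9 genes, 5 lay above that median. Jarid2 and Cbx8 exceeded the 90th percentile, whereas Suz12, Rnf2, Cbx2 and Bmi1 were below the median. Taken by replicate, the medians were 11.9 and 14.5 for the 9 promoters, against 10.2 and 11.8 over all promoter sites. Counting the highest site anywhere in a region, the medians of the lower fold were 11.9 and 10.6. Without Foxr2 p53LOF replicate 1 they were 18.4 and 12.2, where the Cbx8 site enters for both Cbx2 and Cbx8. The median of the 9 genes lay between the quartiles of all bound promoters.

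**Figure D4:**
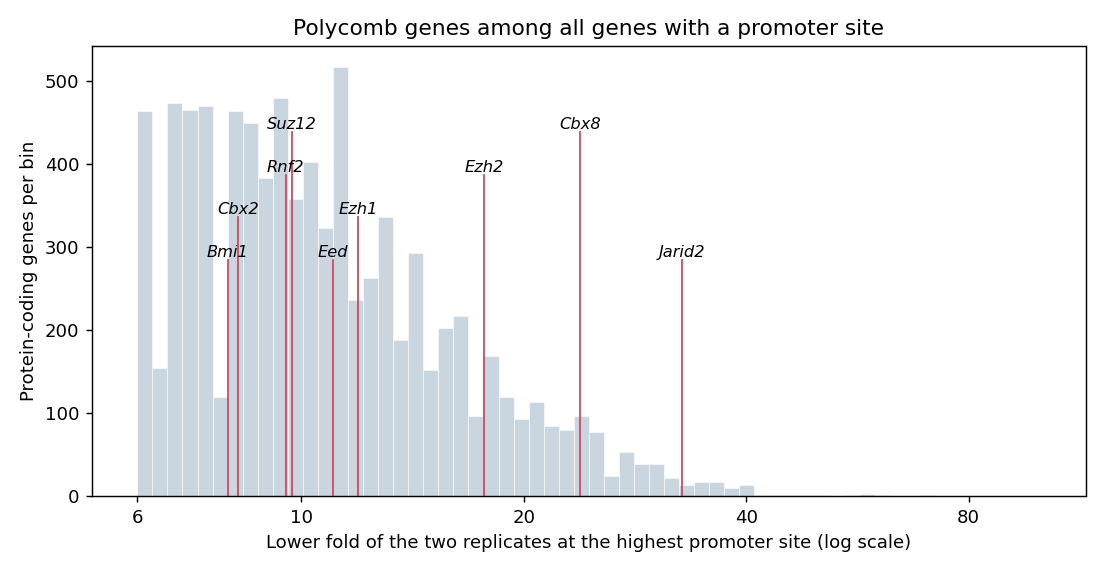
Number of protein-coding genes per bin of the lower fold of the Foxr2 p53LOF replicates at the highest promoter site (log scale), over 8599 genes, with a red line for each of the 9 Polycomb genes. The lines of 6 genes fall between 7.95 and 11.9, in the bulk of the distribution, and those of Ezh2, Cbx8 and Jarid2 fall in its right tail.

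Levels differ between chromosomes in these libraries, and the medians of promoter sites on chromosomes 11 and 13, which carry 5 of the 9 genes, were the highest of 20 chromosomes (lower fold 11.5 on each, against 9.72 over all promoter sites). Relative to its own chromosome, Jarid2 stood at 2.74 and 2.37 times the median in replicates 1 and 2, Cbx8 at 2.00 and 1.90, and Ezh2, on chromosome 6, at 1.67 and 1.81. The same ratio was 0.815 and 1.33 for Suz12 and 1.26 and 0.595 for Cbx2. Eed had 1.09 and 1.26, Rnf2 1.125 and 0.784, Ezh1 1 and 0.952, and Bmi1 0.9 and 1. Jarid2, Cbx8, Ezh2 and Eed were thus above their chromosomes in both replicates. Suz12, Cbx2 and Rnf2 lay on both sides, and Ezh1 and Bmi1 at or below the median. The part of chromosome levels in these folds was not tested further.

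Replicate 2 was the higher replicate at 7 of the 9 promoters, and at 74.5% of all promoter sites. The median ratio of replicate 2 to replicate 1 was 1.10 for the 9 genes and 1.15 for all promoter sites, of which the middle 90% ran from 0.808 to 1.67. Suz12 at 1.89, Cbx2 at 0.547 and Rnf2 at 0.799 fell outside that range. The Poisson intervals of the replicates nevertheless overlapped at 9 of the 9 genes. These folds are each relative to the background of their own library, 1.26 fragments in replicate 1 and 2.04 in replicate 2.

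Summit positions are given beside those of all genes with a promoter site. The summit was downstream of the start at 7 of the 9 genes in replicate 1 and 5 in replicate 2, against 55.1% and 51.8% of genes with a promoter site. Its median distance from the start was 140 and 138 bp, against 208 and 206 bp. The summits of the replicates lay within 50 bp of each other at 5 of the 9 genes (39.8% of genes), with medians of 35 and 76 bp. Peaks had median lengths of 2533 and 2846 bp in replicates 1 and 2, against 2048 and 2479 bp over promoter sites.

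The regions held 36 peaks in replicate 1 and 47 in replicate 2, of which 13 in each passed the filter. They gave 11 sites: 10 at promoters and the intronic one of Jarid2. Peaks seen in a single replicate numbered 7 of 36 and 20 of 47, and the strongest of them reached 5.74-fold, 4324 bp upstream of Suz12 in replicate 1, and 4.60-fold in replicate 2. Leaving aside the stretch shared with the control, 18 overlaps between peaks of the 2 replicates gave no site, and the highest lower fold among them was 5.91. Of these 18, 8 had a peak over the minimum fold in 1 replicate, and some of those were the edge of a promoter peak.

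The 1 kb around the replicate 1 summit was GC-rich at most of the genes. Its GC content was highest at Rnf2 (75.2%), Bmi1 (74.1%), Cbx2 (72.6%) and Suz12 (72.4%), and lowest at Jarid2 (57.1%) and Ezh1 (60.4%). The median over the 9 genes was 66.9%, against 58.6% over all promoter sites, and 8 of the 9 lay above the latter. The ratio of observed to expected CpG had medians of 0.905 and 0.741 and was lowest at Cbx8, at 0.675. Jarid2, the highest by the lower fold, had the lowest GC content, with a CpG ratio of 0.791. Cbx8, next in that order, had the lowest CpG ratio, with a GC content of 66.6%. Ezh2, which follows Cbx8, had 66.9% and 0.948. Bmi1, the lowest by the lower of its folds though not in replicate 2, had the highest CpG ratio, 1.00. A relation between composition and fold was not tested.

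Exact matches to 9 strings were counted on both strands: CCGGAAG (ETS), AAGATGGCG (YY1), CGCATGCG (NRF1), GGGCGGG (SP/KLF), GGCGGGAA (E2F, which overlaps the SP/KLF string in part), TGACGTCA (CREB), CCAAT (NFY), GTAAACA (forkhead) and CCATTGT (SOX). In 200 bp around the replicate 1 summit, the SP/KLF string was present at Eed and Cbx2 (18.5% of 7807 promoter sites), the E2F string at Eed (2.19%), the forkhead string at Ezh1 (1.60%) and the SOX string at Bmi1 (1.43%). The other strings were in none of the 9 windows, against 5.24% of promoter sites for ETS, 1.51% for YY1, 0.564% for NRF1, 0.320% for CREB and 15.4% for NFY. Around the replicate 2 summit, SP/KLF and E2F strings were both present at Ezh2 and Eed (18.0% and 2.40%), and the forkhead and SOX strings no longer fell in the window. These matches describe the letters in the windows and are not binding sites of a factor.

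In the 200 bp before the annotated start, where a promoter can be compared with all 21938 genes, the SP/KLF string was present at 6 of the 9 genes, Ezh2, Suz12, Bmi1, Rnf2, Cbx2 and Cbx8 (27.2% of genes). The NFY string was at Suz12 and Cbx8 (31.7%), the E2F string at Ezh2 (2.17%) and the forkhead string at Eed (2.05%). The strings at Ezh2, Suz12 and Bmi1 are those in capitals above. The ETS, YY1, NRF1, CREB and SOX strings were in none of these 9 windows, against 7.41%, 0.570%, 2.08%, 1.86% and 1.93% of genes. For Jarid2 the window (chr13:44729274-44729473) lies before the outermost start of the gene. It does not lie before the coding start nearest its promoter summits.

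Binding at the other genes of the system was read from lists chosen by function. Of 8 other PRC2 genes, 8 had a site and 7 a promoter site (50.0% and 39.2% of all protein-coding genes, which hold as background for each list), with a median lower fold of 6.63. By the lower of the 2 folds, the highest were Rbbp4, a histone-binding subunit, at 15.0-fold and 23.3-fold, and Lcor, at 9.72-fold and 8.54-fold. Phf1, an accessory subunit of the Polycomb-like family named after its values were seen, had no promoter site, with promoter peaks of 5.74-fold and 5.91-fold. Except for Rbbp4, the lower folds of this list lay in the lower part of those of all bound promoters, below 10.2.

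Of 18 other PRC1 genes, 14 had a site and 14 a promoter site, with a median lower fold of 11.5. The highest by the lower fold was Pcgf2, the paralogue of Bmi1, with 30.5-fold and 35.5-fold at a peak of 6494 and 6281 bp whose summits lay 2413 and 2531 bp upstream of its nearest start. Next by that measure was Cbx6, another chromobox gene, with 16.8-fold and 18.4-fold. The genes without a site, named after their values were seen, were Pcgf6, Cbx7, Scmh1 and Bcor. Pcgf6 had no peak in replicate 1 and peaks of at most 3.61-fold in replicate 2, the least of the PRC1 list. Bmi1 and Pcgf2, which can take the same place in PRC1, had folds of 7.95 and 30.5 in replicate 1 and of 10.2 and 35.5 in replicate 2. The summit of the latter is not at its start. The nearest start of any gene is not given for it, so the peak cannot be assigned to Pcgf2 alone.

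Of 8 genes whose products oppose Polycomb, 6 had a site and 5 a promoter site, with a median lower fold of 12.8. Asxl1 and Bap1, which form the complex that removes ubiquitin from histone H2A, had 23.4-fold and 29.2-fold, and 18.6-fold and 22.0-fold. Kdm6b, a demethylase of lysine 27 that was singled out after its values were seen, had promoter peaks of 30.05-fold and 41.1-fold that were 12591 and 13450 bp long, over the length limit, so that it has no promoter site by the filter. Asxl3 and Kdm6a, also named after their values were seen, had no site, with 5.74-fold and 8.21-fold and with 5.30-fold and 7.23-fold at their highest peaks. Over the 3 lists, 26 of 34 genes had a promoter site (39.2% of all protein-coding genes), at a median of 10.3-fold, and none had a V5 control peak in its region. None of the 34 genes lacked a peak in both Foxr2 p53LOF replicates. Over all protein-coding genes, 66.2% had a peak in their region in replicate 1 and 66.9% in replicate 2.

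**Figure D5:**
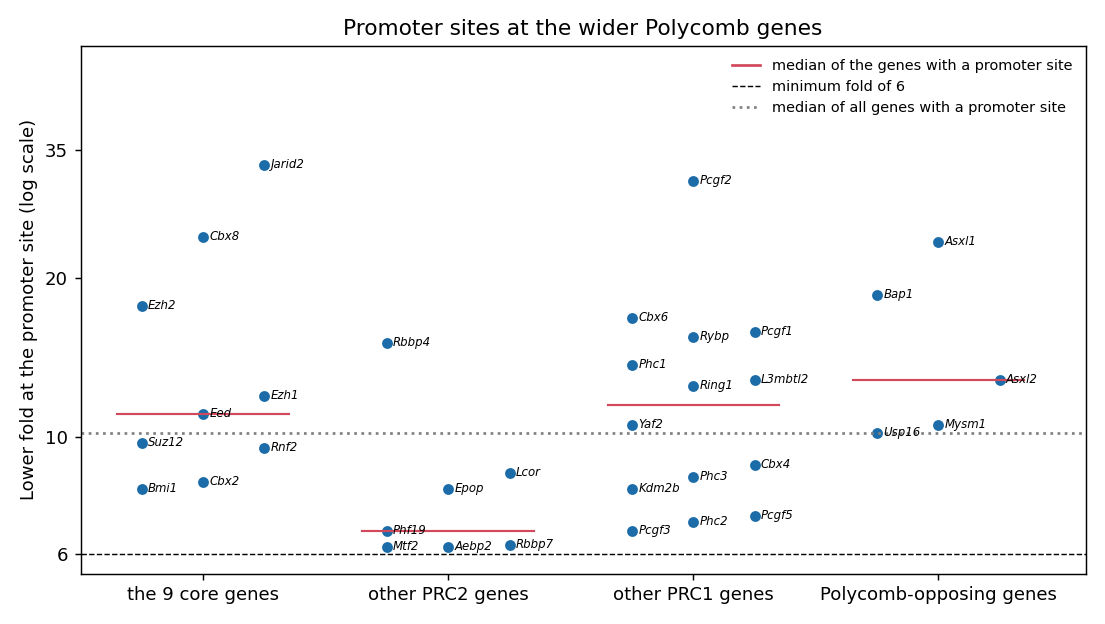
Lower fold of the Foxr2 p53LOF replicates at the promoter site (log scale) of each gene with one, for the 9 genes and for the other PRC2, other PRC1 and Polycomb-opposing genes, with red lines for the medians. The medians are 11.0, 6.63, 11.5 and 12.8, and the lists range from 7.95 to 32.7, from 6.19 to 15.0, from 6.63 to 30.5 and from 10.2 to 23.4.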

How the data were processed

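V5 CUT&RUN peak lists of 2 Foxr2 p53LOF and 2 V5 control libraries were used. RNA-seq and multiome data of the study were not used here. Before deposit, the authors trimmed reads with Trimmomatic 0.39, aligned them to mm10 with BWA 0.7.17, removed duplicates with Picard 2.26.6 and called peaks with MACS2 2.2.7.1, library by library. The submitters' processing notes also list HOMER 4.11, which was not used here. The deposited fold is a ratio within a library. Its −log10 p, its −log10 q, the score (10 times the latter) and the summit position were deposited with it and come from the same peak call by the authors. A control library for peak calling is not given in the sources used here. Folds are relative to each library's own background. Genes and sites were ranked by the lower of the folds of the 2 Foxr2 p53LOF replicates.

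Here, the background of each library was recovered as the value (0.3 to 4, steps of 0.0005) at which folds up to 30 give whole fragment numbers (within 0.02) with the deposited p-values. Peaks were filtered by the limits in the study's methods, without the further overlap with snATAC-seq peaks that the study required, so the sites here are a wider set: no overlap of at least 10 bp with a control peak, fold over 6, −log10 q over 6, length under 10000 bp. A site is the overlap (at least 1 bp) of filtered peaks of both Foxr2 p53LOF replicates. Genes, exons and starts came from GENCODE M21 and sequences from RefSeq GRCm38.p6, the build of mm10. Positions count from 1 and offsets are positive downstream of a start. Groups were compared by an exact two-sided permutation test of the 4 libraries and, as an alternative, by an exact sign-flip test with the replicate number as a block. No gene list was tested, and the 21938 protein-coding genes serve as background. The steps were tested on simulated data. Python 3.11.15, numpy 2.4.6, pandas 2.3.3, scipy 1.17.1, matplotlib 3.10.9 and samtools 1.23.1 were used.

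The members, the wider lists, the strings and the filters were chosen with earlier results of these data known. All 9 members are named, with the 2 highest genes of each wider list, any gene without a peak in both Foxr2 p53LOF replicates, and neighbours whose start is nearest to a site or to a peak pair given in the text. Alternatives covered the fold, q and length limits, control and replicate overlap, region and promoter width, scaling by chromosome, motif window, and leaving out each library. Replicate numbers in the labels do not mark a shared culture or day.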

Additional observations from a re-analysis of the deposited data

How the results depend on the processing

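All 9 genes kept a promoter site under each of the alternatives run except a minimum fold of 10. At that minimum, 5 of the 9 genes had a promoter site (19.7% of all protein-coding genes), the median lower fold of the highest site per region was 20.8 in place of 11.9 (14.1 in place of 10.6 over all genes) over the 6 genes that still had a site, with the Cbx8 site counted for both Cbx2 and Cbx8, the regions held 6 sites in place of 11, and 14 of the 34 wider Polycomb genes had a promoter site in place of 26. With no minimum fold or q there were 29 sites, and with 50 kb on either side there were 24, as both settings admit more peaks by construction. Leaving out 1 library at a time, the median ranged from 11.9 to 18.4, the latter without Foxr2 p53LOF replicate 1, when folds of replicate 2 alone are used. Gene and string pairs with a match numbered 13 in 400 bp windows and 5 in 200 bp windows, while the share of promoter sites with a match went from 18.5% to 41.2% for SP/KLF and from 15.4% to 35.6% for NFY. Scaling folds by chromosome and the other alternatives left the remaining results within 1.5 times the reported count or within the spread. With the replicate number as a block, the groups again differed by 8.5 genes (exact sign-flip p = 0.5, the smallest that 2 pairs allow); the numbers are only shared labels. Few fragments limit precision: summits at the 4 promoters below the median rest on 17 to 55 fragments.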
